A study of Homo sapiens with 40 samples.

Results

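Genome-wide association studies of type 1 diabetes, in which the immune system destroys the insulin-producing beta cells of the pancreas, have tied disease risk to many loci, and some of the genes at these loci act in beta cells as well as in lymphocytes. The chromatin of 10 such genes (GLIS3, BACH2, PTPN2, TYK2, SH2B3, ERBB3, CLEC16A, DEXI, CTSH and RNLS, of 20007 protein-coding genes in GENCODE 44) was examined in EndoC-βH3, a human beta-cell line, before and after the induction of senescence. H3K27ac is an acetylated histone that marks active promoters and enhancers, and CTCF is a zinc-finger protein that binds DNA at a long motif and anchors chromatin loops. A peak was taken to belong to a gene when it lay within 2 kb of one of its transcription start sites, overlapped its gene body, or had one of its start sites as the nearest within 100 kb. By this rule 57 of 51489 H3K27ac peaks, 47 of 51457 CTCF peaks, 20 of 14886 enhancers listed in non-senescent cells and 22 of 13076 enhancers listed in senescent cells belonged to the 10 genes. Of the H3K27ac peaks 2 were counted for both CLEC16A and DEXI, whose start sites neighbour each other, and so was 1 CTCF peak. Of the 2435 regions bound by the retinoblastoma protein Rb specifically in senescent cells, 0 belonged to any of the genes. The closest lay 288 kb from BACH2. The genes hold 57 of 51489 H3K27ac peaks, so few Rb regions were to be expected there. The 0 is therefore not a result about these genes.

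EndoC-βH3 cells are kept dividing by human telomerase and SV40 Large T antigen, which are flanked by recombination sites, and they carry a recombinase, CreER, that becomes active with 4-hydroxytamoxifen. Senescent cells had received 4-hydroxytamoxifen for 3 weeks and non-senescent cells, labelled control, had not, so that loss of the transgenes, drug exposure and senescence cannot be told apart. All libraries came from this 1 line, labelled wild type. For H3K27ac and for CTCF, 3 non-senescent and 3 senescent libraries had been compared. Nothing in the labels says that the libraries came from separate cultures, so the p-values measure the spread between these samples, which may be technical. The deposited tables give, for each peak, the mean normalized read count over the 6 libraries, the log2 fold change of senescent over non-senescent cells with its standard error, and an adjusted p, and no value per library. Levels in each state, given here as implied levels, were therefore worked back from the mean and the fold change. The median peak had a mean of 118.7 normalized counts for H3K27ac and 58.6 for CTCF. A peak is called gained or lost where the fold change exceeds 1.5 and the adjusted p is under 0.05 for H3K27ac or under 0.2 for CTCF. All fold changes, errors and p-values are deposited DESeq2 values (Wald test). The cell identity was checked at start sites. All 13 of the 13 beta-cell marker genes examined had an H3K27ac peak there, with a median of 288 normalized counts per kb of peak, against 1 of 6 T-cell markers (CD8A, 52.8 counts per kb), 0 of 5 B-cell markers and none at the leukocyte gene PTPRC. Among the beta-cell markers, 9 lay above the median of 184 counts per kb over all genes with such a peak, and IAPP, with 64.5, was far below it. Of the other marker lists, 1 of 4 macrophage, 1 of 5 acinar, 1 of 3 duct, 2 of 3 alpha-cell, 0 of 5 fibroblast and 0 of 4 endothelial genes had a start-site peak. Single genes of these lists were as high per kb as the beta-cell median, namely CPA1 (acinar, 298) and IRX2 (alpha cell, 303), and CD68 (macrophage) had 238.

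The H3K27ac peaks that passed the thresholds lay inside and between the risk genes, and none lay at their start sites. Of the 57 peaks, 11 were gained and 5 were lost in senescent cells, where 9.47% of all H3K27ac peaks were gained and 13.1% were lost. None of the 13 peaks at start sites of the genes passed the thresholds, beside 14.3% of all start-site peaks. At that share few of 13 peaks would pass, so their absence does not set these genes apart. The DESeq2 test gave 3 of these 13 an unadjusted p under 0.05, beside 49.4% of all start-site peaks, and 2 of them had an adjusted p under 0.05 with a fold change below 1.5. All 16 called peaks lay among the 43 peaks of the genes that were away from every start site of a protein-coding transcript, which makes 25.6% of these gained and 11.6% lost. Over all peaks away from start sites, 11.3% were gained and 14.4% lost. The median log2 fold change of the 43 peaks was 0.28, and that of all peaks away from start sites was -0.012. Their median standard error, 0.21, was close to that of all such peaks, 0.24. GLIS3 alone accounts for 24 of the 43, with 4 gained and 4 lost. The other 19 held 7 gained peaks and 1 lost peak. No peak outside GLIS3 and BACH2 was lost.

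**Figure D1:**
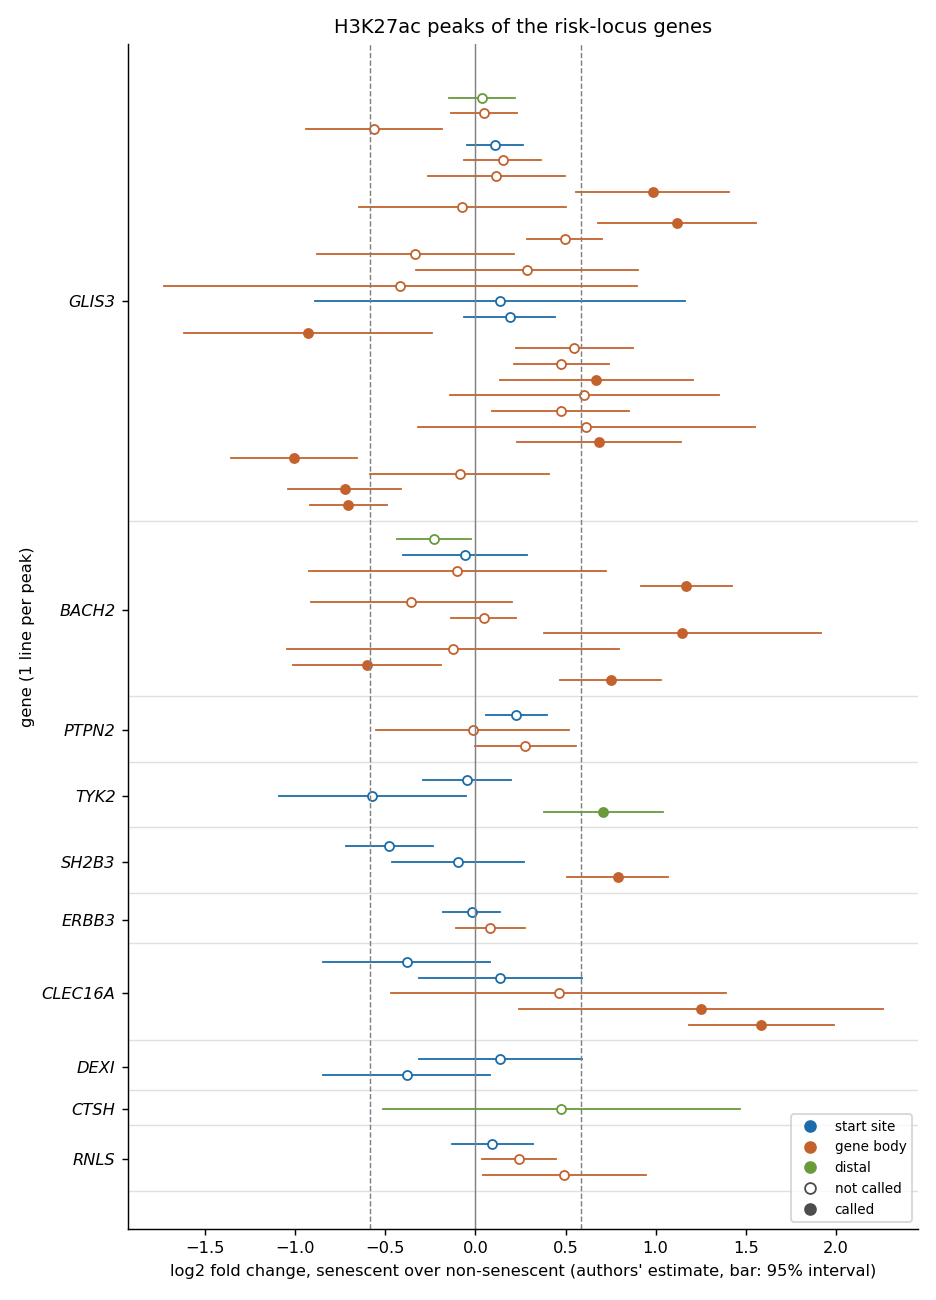
H3K27ac log2 fold change (senescent over non-senescent) of each peak of the 10 genes, 1 line per peak ordered by position along the gene, with the 95% interval from the authors' standard error; colours give the class of the peak, filled points passed the thresholds and dashed lines mark a fold change of 1.5. Start-site peaks stay unfilled in every gene, and the highest value, 1.59, is in CLEC16A.

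At start sites, H3K27ac was highest per kb of peak at PTPN2, which encodes a tyrosine phosphatase that switches off JAK-STAT signalling, with a mean of 304 normalized counts per kb, above 82.2% of the 13059 genes with a start-site peak. ERBB3, a receptor for neuregulins, followed with 238 counts per kb. GLIS3, a zinc-finger transcription factor needed for beta-cell formation and insulin transcription, had 212 and RNLS, which encodes the flavoprotein renalase, had 206, and these 2 did not differ beyond their 95% intervals. TYK2, the Janus kinase of the type I interferon receptor, had 161, below the median of 184 over all genes. Lower still were SH2B3, an adaptor protein that restrains cytokine receptor signalling, with 117, and BACH2, a transcriptional repressor best known from lymphocytes, with 81.8. Each gene is represented by the start-site peak with the most counts in total. For CLEC16A, a regulator of mitophagy, and its neighbour DEXI this was 1 and the same peak, with 63.1 counts per kb, above 8.22% of genes. The shorter peak over CLEC16A exon 1 held fewer counts in total but 67.1 per kb. CTSH, which encodes the lysosomal protease cathepsin H, had no start-site peak in the table. Apart from GLIS3 and RNLS and the shared peak, each of these peaks differed from the next in this order by more than the interval of their ratio. The error of a level was taken as the deposited standard error divided by 2. It measures spread between libraries alone, and the order also depends on the width of the peaks. In total counts ERBB3 (1342 over 5626 bp) stood above PTPN2 (908 over 2990 bp).

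**Figure D2:**
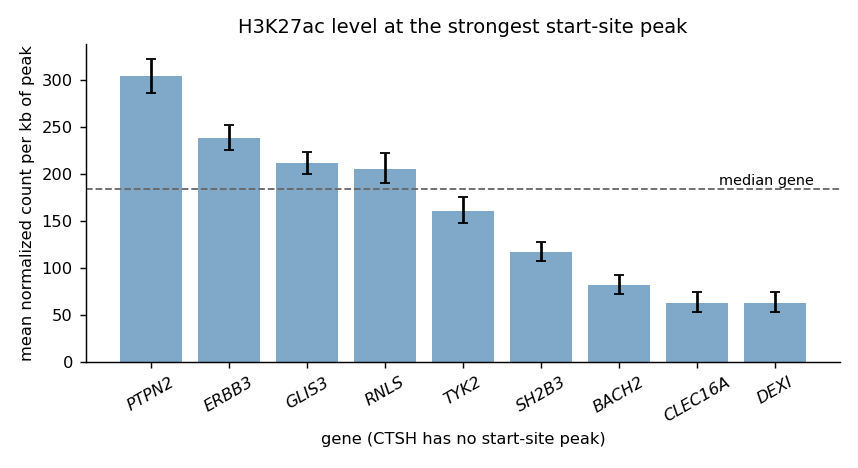
Mean normalized H3K27ac count per kb of peak over the 6 libraries at the start-site peak with the most counts of each gene, with 95% intervals from the authors' standard error, scaled as in the text; CLEC16A and DEXI share their peak. PTPN2, ERBB3, GLIS3 and RNLS lie above the dashed line, the median gene at 184.

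These levels differed little between the states. At the ERBB3 start site (chromosome 12, 56078509 to 56084135, over exon 1) the implied level was 1351 counts in non-senescent and 1332 in senescent cells, a log2 fold change of -0.02 with a 95% interval from -0.18 to 0.14. The intervals were as narrow at GLIS3 (0.11, from -0.05 to 0.27) and wider at TYK2 (-0.05, from -0.29 to 0.20), RNLS (0.09, from -0.13 to 0.32) and BACH2 (-0.06, from -0.40 to 0.29), and all of these exclude a change of 1.5-fold in either direction. The PTPN2 start site (chromosome 18, 12882402 to 12885392, over exon 1) went from an implied 837 to 979 counts, a log2 fold change of 0.23 ± 0.087 (SE) with an adjusted p of 0.025 by DESeq2, and did not reach the fold threshold. The SH2B3 value had the opposite sign. Its start-site peak (chromosome 12, 111404515 to 111407227, over exon 1) went from an implied 369 to 265 counts, a log2 fold change of -0.48 ± 0.12 (SE) with an adjusted p of 5.77e-04, and did not reach the fold threshold either. At CLEC16A and DEXI the start-site peaks had values of opposite sign, but their intervals overlapped and each included no change. The shared stronger peak, over DEXI exon 1, stood at -0.38 on the log2 scale with an interval from -0.84 to 0.08, and the peak over CLEC16A exon 1, 69.9 counts strong on average, had 0.14 with an interval from -0.32 to 0.59. A peak near an internal start site of TYK2, in intron 23, had -0.57 ± 0.26 (SE) and an adjusted p of 0.072. For comparison, the DESeq2 table gave the start-site peak of each gene as gained at 3.15% and lost at 8.94% of the 13059 genes.

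The promoters themselves are shown for 4 genes, 2 because they hold a CTCF motif and 2 because they are rich in CpG, with an H3K27ac peak at SH2B3 and none at CTSH. Sequences from 250 bases before to 50 bases after the RefSeq start site (GRCh38.p14) were at hand for 9 of the 10 genes. The RNLS promoter (chr10:88583269-88583568, minus strand) and the DEXI promoter (chr16:10942419-10942718, minus strand) each carry the CTCF core motif with 1 mismatch, in capitals. In the SH2B3 promoter (chr12:111405673-111405972, plus strand) and the CTSH promoter (chr15:78944997-78945296, minus strand), capitals mark CpG dinucleotides. All 4 promoters overlapped a CTCF peak, with a mean of 287 counts at RNLS, 162 at SH2B3, 24.2 at DEXI and 6.30 at CTSH.
RNLS promoter: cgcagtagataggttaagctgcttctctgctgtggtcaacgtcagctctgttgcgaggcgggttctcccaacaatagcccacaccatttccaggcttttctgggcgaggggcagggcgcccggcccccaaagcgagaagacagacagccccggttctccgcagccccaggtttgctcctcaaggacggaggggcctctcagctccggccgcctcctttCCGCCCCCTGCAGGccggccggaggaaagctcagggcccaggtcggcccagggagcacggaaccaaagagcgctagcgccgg
DEXI promoter: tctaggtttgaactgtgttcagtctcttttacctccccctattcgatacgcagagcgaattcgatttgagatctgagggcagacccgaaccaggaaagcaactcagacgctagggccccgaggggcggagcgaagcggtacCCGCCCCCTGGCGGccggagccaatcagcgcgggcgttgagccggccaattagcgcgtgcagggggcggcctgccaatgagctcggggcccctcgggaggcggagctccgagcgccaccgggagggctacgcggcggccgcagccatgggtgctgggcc
SH2B3 promoter: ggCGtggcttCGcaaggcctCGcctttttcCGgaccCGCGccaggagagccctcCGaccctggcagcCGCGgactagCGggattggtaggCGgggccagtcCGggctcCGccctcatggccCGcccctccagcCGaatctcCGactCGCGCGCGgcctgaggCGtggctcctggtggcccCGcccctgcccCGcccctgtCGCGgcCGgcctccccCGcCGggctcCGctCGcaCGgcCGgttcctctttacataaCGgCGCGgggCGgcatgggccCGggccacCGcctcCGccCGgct
CTSH promoter: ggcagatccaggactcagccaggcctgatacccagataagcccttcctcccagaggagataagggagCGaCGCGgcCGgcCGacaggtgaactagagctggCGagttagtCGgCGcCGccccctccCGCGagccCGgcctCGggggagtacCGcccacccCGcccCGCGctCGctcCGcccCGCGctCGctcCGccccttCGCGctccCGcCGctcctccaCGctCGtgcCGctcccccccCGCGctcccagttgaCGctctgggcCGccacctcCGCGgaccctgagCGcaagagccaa
The SH2B3 promoter holds 40 CpG dinucleotides and the CTSH promoter 37, against a median of 14 over all promoters in the table. The CTSH promoter is thus CpG-rich although no H3K27ac peak was listed at it, and its GC content, 73.3%, equals that of the BACH2 promoter, which had one. With at most 1 mismatch, the CTCF core was found in 3 of the 11 promoter entries of the genes (RNLS, DEXI and an internal PTPN2 start site) and in 2.79% of all 35116 entries. An interferon-stimulated response element (GAAANNGAA, either strand) was in 0 of the 11 and in 8.11% of all entries, and a STAT-type gamma-activated site (TTCNNNGAA, which reads the same on both strands) in 1 of the 11, at an internal GLIS3 start site, and in 7.66% of all.

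The largest gain lay in CLEC16A. In intron 10 (chromosome 16, 10983850 to 10985728, 40.2 kb into the gene), H3K27ac rose from an implied 61.4 to 184 counts, a 3.00-fold increase with a 95% interval from 2.27 to 3.97 and an adjusted p of 2.51e-13 by DESeq2. Of all H3K27ac peaks, 0.707% had a log2 fold change as high. This peak was listed as an enhancer in senescent cells alone. The central 240 bases (chr16:10984670-10984909, plus strand) are shown because they hold 2 copies of the AP-1 motif TGANTCA, the site of FOS and JUN dimers, here in capitals.
CLEC16A intron 10, gained: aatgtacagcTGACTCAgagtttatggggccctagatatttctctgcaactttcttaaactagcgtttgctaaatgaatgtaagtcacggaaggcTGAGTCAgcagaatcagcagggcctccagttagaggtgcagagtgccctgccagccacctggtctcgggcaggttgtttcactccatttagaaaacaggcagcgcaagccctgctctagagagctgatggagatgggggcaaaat
AP-1 motifs (either strand, where the motif reads the same) were found in the central 240 bases of 3 of the 16 called peaks, the other 2 being in GLIS3, 1 gained and 1 lost. Over all H3K27ac peaks 7.51% held one, as did 9.60% of the gained and 7.71% of the lost peaks. A second CLEC16A peak, in intron 8 (chromosome 16, 10978345 to 10978845), was gained with a log2 fold change of 1.25 ± 0.51 (SE) and an adjusted p of 0.041, at a mean of 17.5 counts. The third, over exon 8, had 0.46 with an interval from -0.47 to 1.39. DEXI, on the other side of the shared start-site region, had no peak of its own beyond the start sites.

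BACH2 gained H3K27ac at 3 intronic peaks and lost it at 1. The strongest was in intron 1 (chromosome 6, 90284158 to 90286997, 11.3 kb from the canonical start site), where the implied level went from 197 to 443 counts, 2.25-fold with an interval from 1.89 to 2.68 and an adjusted p of 4.64e-18 in the DESeq2 table. This peak too was an enhancer in the senescent list alone. It overlapped a CTCF peak whose own log2 fold change was 0.13, with an interval from -0.28 to 0.54. The other gained peaks were in intron 6 (chromosome 6, 89976891 to 89979134), with a log2 fold change of 0.75 ± 0.14 (SE), and in intron 4 (chromosome 6, 90159145 to 90159731), with 1.15 ± 0.39 (SE) at a mean of 26.0 counts. The one in intron 6 lies closer to a start site of GJA10 than to one of BACH2. The lost peak, outside the rule for named peaks and named after its value was seen, was in intron 4 (chromosome 6, 90102901 to 90104493, log2 fold change -0.60 ± 0.21, SE, adjusted p 0.013 by DESeq2). The 2 BACH2 peaks with the most counts were not called. The peak in intron 3 held 617 counts on average and had a log2 fold change of 0.05, with an interval from -0.13 to 0.23, and a peak beyond the start site, at the edge of the 100 kb limit, held 475.01 and had -0.23, with an interval from -0.44 to -0.03. The start site itself had a log2 fold change of -0.06.

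GLIS3 held the most peaks, 27, with gains in introns 2 and 4 and losses in introns 4 and 7 and over exon 8. Numbering introns along the canonical transcript, intron 2 held 10 peaks, of which 2 were gained and none lost, and intron 4 held 9, of which 2 were gained and 2 lost. The peaks in intron 7 and over exon 8, the last 2 in the gene, were both lost. The peak over exon 8 (chromosome 9, 3877625 to 3881656, 420 kb from the canonical start site) went from an implied 536 to 329 counts, a log2 fold change of -0.70 ± 0.11 (SE) with an adjusted p of 2.17e-09 by DESeq2. Far down intron 4 (chromosome 9, 3975744 to 3978302), H3K27ac fell from an implied 196 to 97.5 counts, a log2 fold change of -1.005 with an interval from -1.35 to -0.65, and the peak was an enhancer in the non-senescent list alone. The peak in intron 2 (chromosome 9, 4207102 to 4208833, 92.1 kb into the gene) went from 50.2 to 109 counts, 2.17-fold with an interval from 1.60 to 2.94. The remaining 5 called peaks, named after their values were seen, comprise gains in intron 2 at 4235247 (log2 fold change 0.98) and in intron 4 at 3992345 (0.69) and 4026786 (0.67), and losses in intron 4 at 4111055 (-0.93) and in intron 7 at 3886209 (-0.73). None of the 4 gained GLIS3 peaks overlapped a listed enhancer of either state. The strongest intronic peaks shifted less. For a peak in intron 1 with 888 counts the log2 fold change was 0.15, with an interval from -0.06 to 0.37. One in intron 2 with 672 counts (chromosome 9, 4191200 to 4195798, chosen after its value was seen) had 0.49 ± 0.11 (SE) and an adjusted p of 2.12e-05, below the fold threshold.

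**Figure D3:**
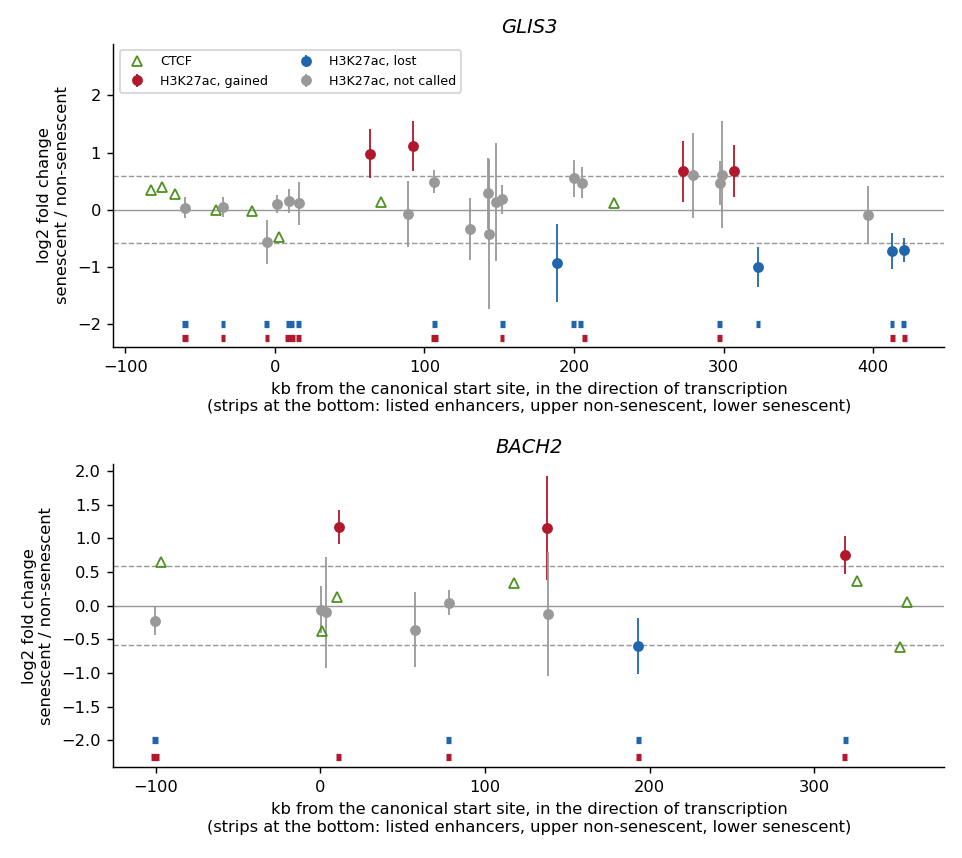
H3K27ac (circles, with 95% intervals) and CTCF (open triangles, peaks with an adjusted p) log2 fold changes along GLIS3 and BACH2, against distance in kb from the canonical start site in the direction of transcription; dashed lines mark a fold change of 1.5 and the strips below show the listed enhancers of each state. In GLIS3 the last 2 peaks of the gene, 413 and 420 kb from the start site, are both lost, and in BACH2 the peak 11.3 kb into the gene is the highest.

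In the cytokine signalling genes, 2 further peaks were gained. The SH2B3 peak (chromosome 12, 111443920 to 111447399) covers exons 3 to 6 and also lies in an intron of ATXN2, whose start site is the nearer one. Its implied level went from 181 to 313 counts, a log2 fold change of 0.79 ± 0.14 (SE) with an adjusted p of 3.50e-07 by DESeq2, beside -0.48 at the SH2B3 start site. The TYK2 peak (chromosome 19, 10345837 to 10347989) is intergenic, 5935 bp from the nearest TYK2 start site and 33.7 kb from the canonical one, and went from 136 to 223 counts, with a log2 fold change of 0.71 ± 0.17 (SE) and an adjusted p of 1.45e-04. Both peaks overlapped enhancers of both states. No peak was called at PTPN2, ERBB3 or RNLS, where the peaks away from the genes' own start sites had log2 fold changes between -0.02 and 0.49. The largest of these, 0.49 in RNLS intron 6 (chromosome 10, 88295779 to 88297227, chosen after its value was seen), had an adjusted p of 0.076 and overlapped an enhancer of the senescent list alone. The single CTSH peak, intergenic and with a mean of 17.4 counts, had 0.48 with an interval from -0.52 to 1.47, so a change of 1.5-fold was not detectable there at this depth.

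**Figure D4:**
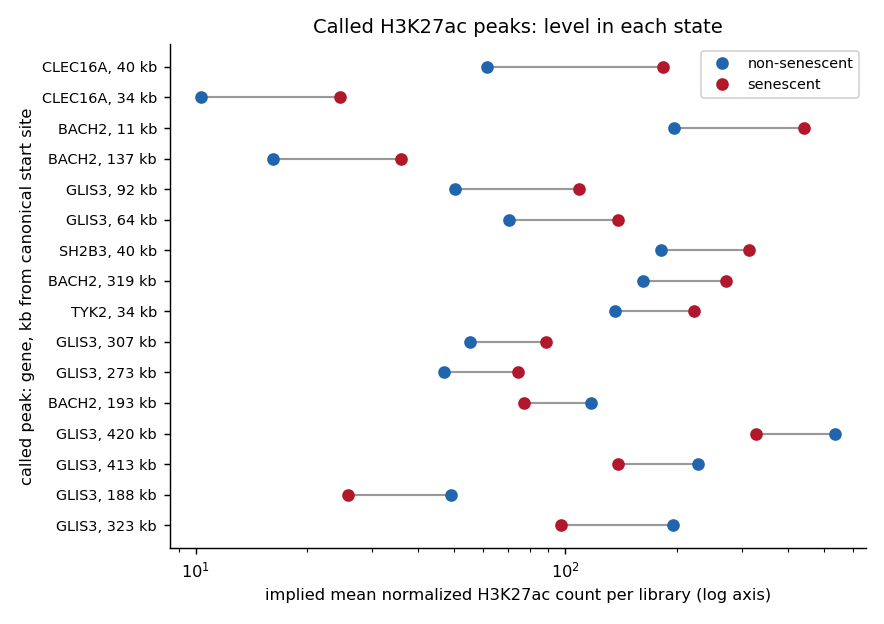
Implied mean normalized H3K27ac count per library in non-senescent and senescent cells for the 16 called peaks, on a log axis, sorted by fold change and labelled by gene and distance from the canonical start site. The CLEC16A peak 40 kb into the gene has the widest gap, from 61.4 to 184 counts.

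Enhancers of the genes were mostly listed in both states. Of the 20 enhancers in the non-senescent list 17 overlapped one of the senescent list, and of the 22 in the senescent list 18 overlapped one of the other, which makes 85.0% and 81.8%, beside 70.6% and 79.5% of the whole lists. The 3 enhancers found in non-senescent cells alone were all in GLIS3 intron 4, and being listed in that state alone did not go with a lost peak each time. The first lay in the lost peak with a log2 fold change of -1.005. The other 2 (chosen after their values were seen) lay in peaks with positive values below the fold threshold, 0.55 (chromosome 9, 4099259 to 4101575, adjusted p 0.0034 by DESeq2) and 0.48 (4092175 to 4096871, adjusted p 0.0018), and the second of these peaks also held the GLIS3 enhancer found in senescent cells alone. The 4 found in senescent cells alone were 1 each in GLIS3, BACH2, CLEC16A and RNLS. ERBB3, DEXI and CTSH had no listed enhancer in either state, and CLEC16A had 1, in senescent cells. Of the genes' H3K27ac peaks, 33 (57.9%) overlapped neither list, and these held 6 (54.5%) of the 11 gained peaks, near the 66.7% of all H3K27ac peaks and 50.5% of all gained peaks that overlapped neither. The enhancer lists come from the same H3K27ac libraries as the fold changes, so the 2 are not independent.

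Few CTCF peaks of the genes were called changed, as was so for CTCF peaks in general. Of the 47 peaks 36 had an adjusted p, and 2 of these were gained and 0 lost, where 2.99% of all such CTCF peaks were gained and 4.28% lost. By DESeq2, 5 of the 47 peaks were higher and 5 lower at an unadjusted p under 0.05, where 7.63% of all CTCF peaks were higher and 8.33% lower by this measure. TYK2 had no CTCF peak. The sequences below show the motif site in each peak (60 bases on the strand of the motif, hg38, the best match to the 14-base CTCF core in capitals) at both gained peaks and, for contrast, at the strongest peaks of 4 genes. These 4 were chosen with their values known, for log2 fold changes near 0. The strongest peaks of GLIS3 (-0.01) and BACH2 (0.05) lay near 0 too, held fewer counts and are not shown. They are at chr6:90393459-90393518 (minus strand, BACH2), chr10:88565249-88565308 (plus, RNLS intron 4), chr10:88583314-88583373 (plus, RNLS start site), chr12:111397071-111397130 (plus, SH2B3), chr16:10963818-10963877 (minus, CLEC16A) and chr18:12934632-12934691 (minus, PTPN2).
BACH2 upstream, gained: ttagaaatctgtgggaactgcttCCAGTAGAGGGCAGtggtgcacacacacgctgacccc
RNLS intron 4, gained: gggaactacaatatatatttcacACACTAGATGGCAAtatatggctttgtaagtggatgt
RNLS start site: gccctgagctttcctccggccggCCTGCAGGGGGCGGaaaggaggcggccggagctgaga
SH2B3 upstream: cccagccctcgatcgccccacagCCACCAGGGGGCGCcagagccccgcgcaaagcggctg
CLEC16A intron 3: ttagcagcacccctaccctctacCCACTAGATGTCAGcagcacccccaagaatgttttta
PTPN2 upstream: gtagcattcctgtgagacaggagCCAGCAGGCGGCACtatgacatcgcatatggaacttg
The core has 0 mismatches at the gained BACH2 site and at the SH2B3 site, 1 at the RNLS start site, in CLEC16A and in PTPN2, and 2 at the gained RNLS site. Over the genes, 44.7% of the 47 CTCF peaks held a core with at most 1 mismatch on either strand and 19.1% an exact one. Of all CTCF peaks 35.0% and 8.60% did, and of regions shifted by 10 kb 2.54% held one with at most 1 mismatch. The study describes a motif filter on its CTCF peaks, so the shifted regions may be set against peaks selected for the motif. A peak without this core can still hold a motif by the study's own criterion.

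The gained BACH2 peak (chromosome 6, 90392807 to 90394155) is intergenic, 95965 bp from the nearest BACH2 start site, and went from an implied 110 to 174 counts, a log2 fold change of 0.66 ± 0.20 (SE) with an adjusted p of 0.038 by DESeq2. The gained RNLS peak (chromosome 10, 88564640 to 88565848, intron 4) went from 94.7 to 143 counts, a log2 fold change of 0.59 ± 0.21 (SE) with an adjusted p of 0.092. The median CTCF log2 fold change of peaks of like GC content, outside start sites, enhancers and H3K27ac peaks, was 0.11 for the BACH2 peak and 0.25 for the RNLS peak. With this trend on GC content removed, the values were 0.54 (adjusted p 0.16) and 0.34 (adjusted p 0.55), and neither peak was called. All 6 RNLS peaks had log2 fold changes above 0, from 0.02 to 0.59, 3 of them with an unadjusted p under 0.05 by DESeq2. Of the 6 CLEC16A peaks 5 had values below 0, with a range from -0.28 to 0.06, and every interval included 0. With the GC trend removed the RNLS values stayed above 0, and the CLEC16A peaks at the start site (0.021) and over exon 5 (0.075) were above 0. The strongest peaks of the 4 genes shown above had narrow intervals. Their choice for values near 0 favours intervals that exclude a change. SH2B3 upstream held 444 counts with a log2 fold change of -0.08 (from -0.34 to 0.17), CLEC16A intron 3 held 362 with -0.09 (from -0.34 to 0.16), PTPN2 upstream held 296 with 0.08 (from -0.18 to 0.34) and the RNLS start site held 287 with 0.13 (from -0.13 to 0.40), each excluding a change of 1.5-fold in either direction. The peak with the second most counts of all 47, at the ERBB3 start site, did not exclude it.

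At start sites, 9 of 10 CTCF peaks of the genes had a log2 fold change below 0, with a median of -0.44, and none passed the thresholds. Only 6 of the 10 had an adjusted p. The others, at GLIS3, ERBB3 and CTSH, had mean counts from 6.30 to 15.7 and could not be called. GLIS3 held 3 of the 10 peaks and ERBB3 2. Over all start-site CTCF peaks the median was -0.17, and away from start sites it was 0.037. With the GC trend removed 7 of the 10 were below 0, with a median of -0.24, beside -0.0071 for all start-site peaks. ERBB3 had the strongest of them (chromosome 12, 56078343 to 56080715), with 374 counts and a log2 fold change of -0.41 ± 0.15 (SE, interval from -0.70 to -0.12), adjusted p 0.093. SH2B3 (chromosome 12, 111404920 to 111406032) had the lowest adjusted p by DESeq2, 0.054, with a log2 fold change of -0.57 ± 0.18 (SE), just under the fold threshold. With the GC trend removed these became -0.22 and -0.27. The BACH2 start site had -0.38 with an interval from -0.80 to 0.03, and -0.086 with the trend removed. The start sites of RNLS, 0.13, and of CTSH, -1.70 at a mean of 6.30 counts and without an adjusted p, mark the ends of the range. The strongest CTCF peak of GLIS3, upstream of its canonical start site but inside its gene body, held 155 counts with a log2 fold change of -0.01 (from -0.39 to 0.36), and the strongest of CTSH, intergenic, held 76.1 with -0.46 (from -0.97 to 0.04). That of BACH2, in intron 7, held 194 with 0.05 (from -0.27 to 0.38). The peak at the DEXI start site, whose promoter carries the core motif printed above, held 24.2 counts with -0.28 (from -1.15 to 0.59), or 0.021 with the trend removed, too few to detect a change of 1.5-fold.

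**Figure D5:**
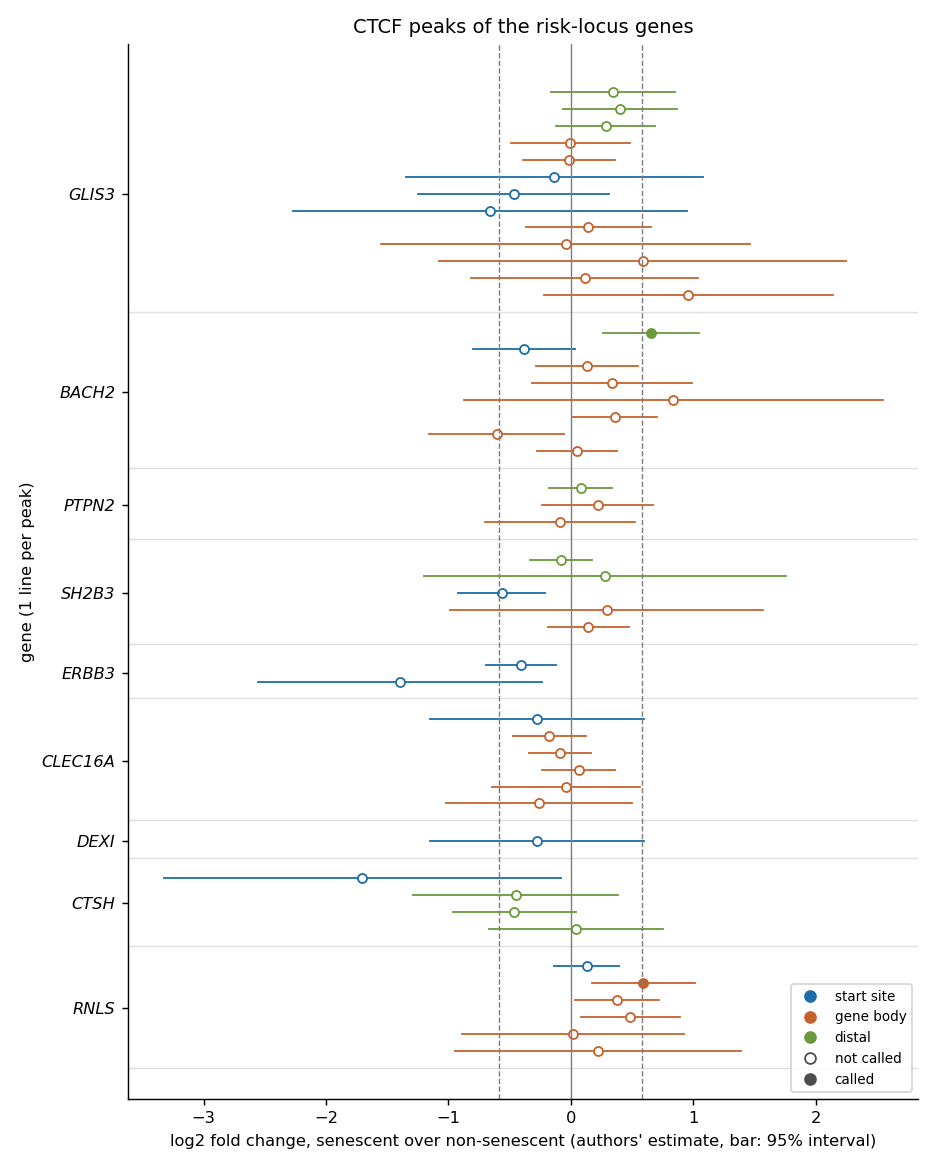
CTCF log2 fold change (senescent over non-senescent) of each CTCF peak of the genes, 1 line per peak ordered by position along the gene, with the 95% interval from the authors' standard error; colours give the class of the peak, filled points passed the thresholds and dashed lines mark a fold change of 1.5. Only 1 BACH2 and 1 RNLS peak are filled, and start-site peaks lie left of 0 except at RNLS.

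Genes that act with these 10, and other type 1 diabetes risk genes, were described at their start sites, each by its strongest H3K27ac peak. Of 44 other risk genes 25 had such a peak, where 65.3% of all protein-coding genes did. Of the 25, 1 was gained and 6 were lost, beside 3.15% and 8.94% of all genes with such a peak. The lost ones with the smallest adjusted p by DESeq2 were CENPW, a kinetochore protein (log2 fold change -1.07), TNFRSF11B, the decoy receptor osteoprotegerin (-1.46), and IFIH1, a sensor of viral double-stranded RNA (-0.61). The gained one, IL7R (named after its value was seen), had 1.28 at a mean of 26.4 counts. Among the 19 without a peak were the T-cell genes CTLA4, IL2RA and PTPN22, picked outside the rule for named genes. IL7R and STAT4, which also act in T cells, had one. Of 22 interferon and JAK-STAT genes with a peak, IFNGR1 was gained (0.60) and STAT4, which is also on the risk list, was lost (-1.31). Of 9 BACH, NFE2 and small MAF genes and their partners, MAFG was gained (0.65) and MAFF lost (-0.70), and of 11 cathepsin and cystatin genes CTSZ was lost (-1.13). No gene was called among 13 ERBB and neuregulin genes, 15 mitophagy genes and 11 GLIS and beta-cell transcription factor genes, and 7, 7 and 6 of them had an unadjusted p under 0.05 by DESeq2, where 50.9% of all genes with such a peak did. The medians of the 7 lists ran from -0.21 (BACH and small MAF) to 0.18 (mitophagy). That of the 9 risk genes with a start-site peak was -0.05, with the peak shared by CLEC16A and DEXI counted for both. The median of all start-site peaks, not limited to 1 per gene, was 0.033.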

How the data were processed

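ChIP-seq (chromatin immunoprecipitation, then sequencing) had been performed for H3K27ac and CTCF in 3 non-senescent and 3 senescent libraries each, and H3K4me1 and Rb on 2 and 2, each with its own input, 40 libraries in all, grouped here by the labels. As the study describes, the authors mapped reads trimmed by Trim Galore to the hg38 genome using Bowtie2, called peaks with HOMER (H3K27ac, H3K4me1) or MACS2 (CTCF, Rb), and compared raw read counts in peaks between states with DESeq2. The study also states that CTCF peaks were filtered for the CTCF motif. Tool versions and the way replicates were merged into peak lists were not given in the sources used here.

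The deposited tables hold the authors' DESeq2 results. The deposited mean signal averages counts divided by size factors over the libraries. The deposited fold change and standard error are on the log2 scale, and the Wald score the authors gave equals the first over the second in every row. The deposited p-values are given raw and Benjamini-Hochberg adjusted. The adjusted p-value is missing for 11972 CTCF peaks, which stayed uncalled. The deposited enhancer and Rb lists hold positions alone. A test on counts per library with edgeR had been planned but was not run, since the tables hold no values per library, so the authors' deposited values were taken and nothing was refitted. Depth per library is therefore unknown, and precision is that of the deposited standard errors. Because size factors centre the typical peak on no change, a genome-wide shift of a mark would not show.

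Peaks were assigned with GENCODE 44 start sites of protein-coding transcripts, counting an overlap of at least 1 bp, as in the opening of the report. The implied level of a state was solved from the mean and fold change, assuming equal weights for the states. Intervals are 95% and normal, from the deposited standard error, scaled for start-site levels as given with them. The GC trend was the median CTCF fold change in 20 bins of GC content. Scripts (Python 3.11.15, pandas 2.3.3, pysam 0.24.0) were tested on simulated data. For each gene, the start-site peak with the highest mean count, up to 3 called H3K27ac peaks with the smallest adjusted p-value, every called CTCF peak and the strongest CTCF peak were named, and at most 3 called genes of other lists. The genes, lists and rules were chosen with earlier results of these data known. Alternatives were other thresholds, a test against a fold of 1.5, recentring, other windows and annotations, the GC trend and a motif filter.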

Additional observations from a re-analysis of the deposited data

How the results depend on the processing

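The 11 gained and 5 lost H3K27ac peaks became 5 and 1 with a fold change above 2, 7 and 3 with an adjusted p under 0.01, and 2 and 0 when each fold change was tested against 1.5 (DESeq2 values, Wald test against a threshold). The 2 that passed this last test were the BACH2 intron 1 and CLEC16A intron 10 peaks. The 2 gained CTCF peaks became 0 with a fold change above 2, with the test against 1.5 and with the GC trend removed, and 1 with an adjusted p under 0.05, with a 1 kb window and a 50 kb limit, with nearest start sites among all annotated genes, and with a core motif required. With the GC trend removed the count of lost CTCF peaks went from 0 to 1, a BACH2 intron 7 peak (-0.79, adjusted p 0.14). The CLEC16A start-site log2 fold change, -0.38 at the strongest peak, was 0.14 at the peak closest to the canonical start site. Of the other values, 28 counts were identical, among them 0 called start-site H3K27ac peaks under every alternative run, and 17 start-site log2 fold changes kept their sign and stayed uncalled. The remaining 7 counts moved by at most 1.5 times. With a mean count of at least 50, 9 H3K27ac peaks were gained and 4 lost, and with nearest start sites among all annotated genes 6 were lost. Requiring an overlap of 0.5 of the enhancer left 16 of the 17 shared non-senescent enhancers and 4 in place of 3 in that state alone, and a 50 kb limit left 15 shared enhancers of the non-senescent and 16 of the senescent list. Recentring on the median of all peaks (0.0075 for H3K27ac and -0.012 for CTCF) moved no count. No paired analysis was possible because the tables hold no values per library, and leaving out single libraries was not run for the same reason. Peaks with few counts limit what could be seen: the 11 CTCF peaks of the genes without an adjusted p had a median mean count of 8.88, against 107 in the other 36.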
